A study of Mus musculus with 405 samples.

Results

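The tubulin genes followed here were 10 in number, 4 encoding alpha-tubulins (Tuba1a, Tuba1b, Tuba1c and Tuba4a) and 6 encoding beta-tubulins (Tubb2a, Tubb2b, Tubb3, Tubb4a, Tubb5 and Tubb6), in mouse cortical cultures exposed to pesticides and other chemicals. They were taken by symbol from a list of names made with earlier results of these data known, and no measured value entered the rule. All 10 were among the 13304 genes of the screen table and among the 23893 rows of the pyraclostrobin count table. The cultures came from the cortex of embryonic day 15 hybrids of C57BL/6J and CAST/EiJ mice, by the sample labels, and were neuron-enriched but mixed. At day 7 in vitro they received 1 chemical or dimethylsulphoxide vehicle for 24 h, and polyadenylated RNA was sequenced.

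The screen table held 393 libraries: 49 vehicle libraries, 32 libraries of topotecan at 0.3 μM and libraries of 296 other chemicals, 282 of which had a single library. The count table held 4 libraries of pyraclostrobin at 0.1 μM and 4 vehicle libraries, with total counts between 2409623 and 7833440. Nothing in the sources used here says that replicate libraries came from separate animals. The p-values for pyraclostrobin counts and for topotecan therefore measure the spread between libraries. Those for classes of chemicals, described below, also measure the spread between chemicals. In these bulk cultures, fewer cells of a type and less RNA per cell cannot be told apart.

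Alpha- and beta-tubulin pair into the dimers from which microtubules are built, and neurons make several isotypes, of which Tubb3 is the classical neuronal one. Cells also regulate tubulin mRNA by the amount of free dimer. When microtubules are depolymerized and free tubulin accumulates, TTC5 recognizes the amino terminus of newly made tubulin on the ribosome and, through SCAPER and the CCR4-NOT deadenylase, causes the mRNA being translated to be degraded. Agents that stabilize microtubules have the opposite effect. This control, called tubulin autoregulation, makes tubulin mRNAs a possible readout of chemicals that act on microtubules, and the chemicals of the screen included fungicides and herbicides designed against fungal or plant tubulin as well as inhibitors of mitochondrial respiration.

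The start of the coding sequence is shown because it encodes the stretch that TTC5 reads. The first 30 coding bases follow, 5′ to 3′ on the coding strand, with the first 4 codons in capitals, read from the mm9 genome build with GENCODE annotation.
Tuba1a: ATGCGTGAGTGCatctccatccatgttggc
Tuba4a: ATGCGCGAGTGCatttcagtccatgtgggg
Tubb2a: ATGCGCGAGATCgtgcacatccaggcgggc
Tubb2b: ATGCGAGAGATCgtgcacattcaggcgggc
Tubb3: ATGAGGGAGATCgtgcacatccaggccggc
Tubb4a: ATGCGGGAAATCgtgcacctgcaagccggt
Tubb5: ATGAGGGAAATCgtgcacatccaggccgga

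Tuba1b and Tuba1c were identical to each other over these 30 bases and differed from Tuba1a at 1 base. The beta sequences lie in 1 exon each, on the minus strand at chr13:34169769-34169798 for Tubb2a, chr13:34222073-34222102 for Tubb2b, chr17:57226907-57226936 for Tubb4a and chr17:35974969-35974998 for Tubb5, and on the plus strand at chr8:125935506-125935535 for Tubb3. In the alpha genes an intron follows the start codon. For Tuba1a, on the minus strand, the start codon lies at chr15:98783882-98783884 and the next 27 bases at chr15:98782096-98782122. For Tuba4a, on the minus strand, the corresponding places are chr1:75215768-75215770 and chr1:75213983-75214009. Within the capitals, Tuba1a and Tubb2a differed at 3 of 12 bases and Tuba1a and Tubb5 at 5 of 12, whereas Tubb3 and Tubb5 differed at 1 of 12. The codons in capitals encode Met-Arg-Glu-Cys in the alpha genes and Met-Arg-Glu-Ile in the beta genes shown. Within the capitals, base differences among the alpha genes or among these beta genes therefore leave the encoded residues unchanged. Tubb6 lies on chromosome 18 and its sequence is not shown.

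The family also shares long stretches of sequence, which matters for how reads of 50 bases were assigned. Of the 50-base windows of the annotated transcript, 69.6% in Tuba1a, 82.9% in Tuba1b and 60.7% in Tuba1c had an exact match elsewhere in the genome, as had 50.4% in Tubb2a and 57.3% in Tubb2b. Tuba1b shared 55.6% of its windows with Tuba1c, and Tubb2a shared 46.4% with Tubb2b. These windows stand for single reads. The libraries were paired-end, and how often both reads of a pair match elsewhere was not examined, so fewer pairs than windows may be ambiguous. How reads with several matches were counted is not given in the sources used here, so the division of signal within the Tuba1 group and within the Tubb2 pair is uncertain. Sharing was low for Tubb3 (11.5%), Tuba4a (1.55%), Tubb5 (1.39%) and Tubb4a (0.184%), and no window of Tubb6 matched elsewhere.

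Levels could be ordered only in the count table, as CPM, the counts scaled to a common library size with TMM factors, divided by the kilobases of exon. In vehicle libraries Tuba1a was the highest, at 2754 ± 571 CPM per kb (SD, n = 4), followed by Tubb3 at 1394 ± 168, Tubb5 at 1161 ± 222 and Tubb2b at 1101 ± 206. Tubb2a stood at 609 ± 78.0 and Tubb4a at 219.8 ± 8.62. The lowest were Tuba4a at 63.3 ± 14, Tuba1b at 59.3 ± 13.8, Tuba1c at 35.7 ± 2.20 and Tubb6 at 10.8 ± 3.55. The ranges of neighbours overlapped between Tubb3 and Tubb5, between Tubb5 and Tubb2b and between Tuba4a and Tuba1b, so those orders were not resolved. Levels in the Tuba1 group and the Tubb2 pair also depend on how shared reads were counted. The order within each of these was therefore not resolved either. The 10 genes together took 1.23% to 1.82% of all counts in the vehicle libraries.

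Pyraclostrobin, a strobilurin fungicide that blocks complex III of the respiratory chain at the Qo site, lowered 9 of the 10 tubulin mRNAs and raised Tubb6. All 10 passed edgeR's quasi-likelihood test at an adjusted p under 0.01, beside 21.3% of the 12324 genes tested. By direction, 9.22% of all genes were called lower and 12.1% higher. The median log2 difference was -0.93 over the 10 genes and -0.0021 over all genes tested. The 10 genes fell to between 0.816% and 0.83% of all counts.

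Among the alpha-tubulins, Tuba1a, the main embryonic and neuronal isotype, had 5930.4, 3918, 4263 and 4029.7 CPM in the vehicle libraries and 2222, 2104, 2118 and 2102 CPM in the pyraclostrobin libraries. Every treated library lay below every vehicle library, and the treated libraries were much closer to each other than the vehicle libraries were. The log2 difference was -1.08 ± 0.13 (SE, adjusted p = 0.00016, edgeR). Tuba1b, at 111 ± 25.8 against 60.2 ± 1.90 CPM (vehicle against pyraclostrobin, SD, n = 4), and Tuba1c, at 70.5 ± 4.34 against 37.4 ± 2.77, fell by 0.88 and 0.91 on the log2 scale, within the uncertainty of their shared reads. Tuba4a, which is expressed in mature neurons and shares few windows, had 171, 106, 129 and 114 CPM in vehicle and 62.4, 35.9, 39 and 50.3 CPM in pyraclostrobin. It showed a log2 difference of -1.47 ± 0.20 (adjusted p = 0.00034, edgeR), with no overlap between the groups.

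Among the beta-tubulins, Tubb3 had 3051, 2319, 2537 and 2509 CPM in the vehicle libraries and 927, 1037, 969.8 and 1045 CPM in the pyraclostrobin libraries. All treated libraries were far below the lowest vehicle library, with a log2 difference of -1.39 ± 0.11 (adjusted p = 1.1e-05, edgeR). Tubb4a, an isotype of mature brain, had 471, 475, 505 and 507 CPM in vehicle and 188, 187, 168 and 185 CPM in pyraclostrobin. Its libraries were close to each other within each group, the groups did not overlap, and it differed by -1.43 ± 0.099 log2 units (adjusted p = 6.2e-06, edgeR). Tubb2a and Tubb2b fell by 0.95 and 0.74 on the log2 scale (adjusted p = 0.00017 and 0.0011, edgeR), and neither pair of groups overlapped.

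Tubb5, the broadly expressed beta isotype, moved least among the genes that fell. It had 4955, 3561, 3538 and 3375 CPM in vehicle and 2312, 2501, 2501 and 2530.1 CPM in pyraclostrobin, a log2 difference of -0.65 ± 0.13 (adjusted p = 0.0024, edgeR). Tubb6, a beta isotype that is sparse in neurons and found in many non-neuronal cells, went the other way. It had 28.1, 14, 17.7 and 16.3 CPM in the vehicle libraries and 129, 87.9, 108 and 87.2 CPM in the pyraclostrobin libraries. The groups were far apart and the rise was 5.48-fold (log2 difference 2.45 ± 0.22, adjusted p = 2.8e-05, edgeR). The share of Tubb6 in the counts of the 10 genes was 0.105% to 0.150% in vehicle and 1.11% to 1.65% in pyraclostrobin. For none of the 10 genes did the groups overlap, and the same held for 35.2% of all genes tested.

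**Figure D1:**
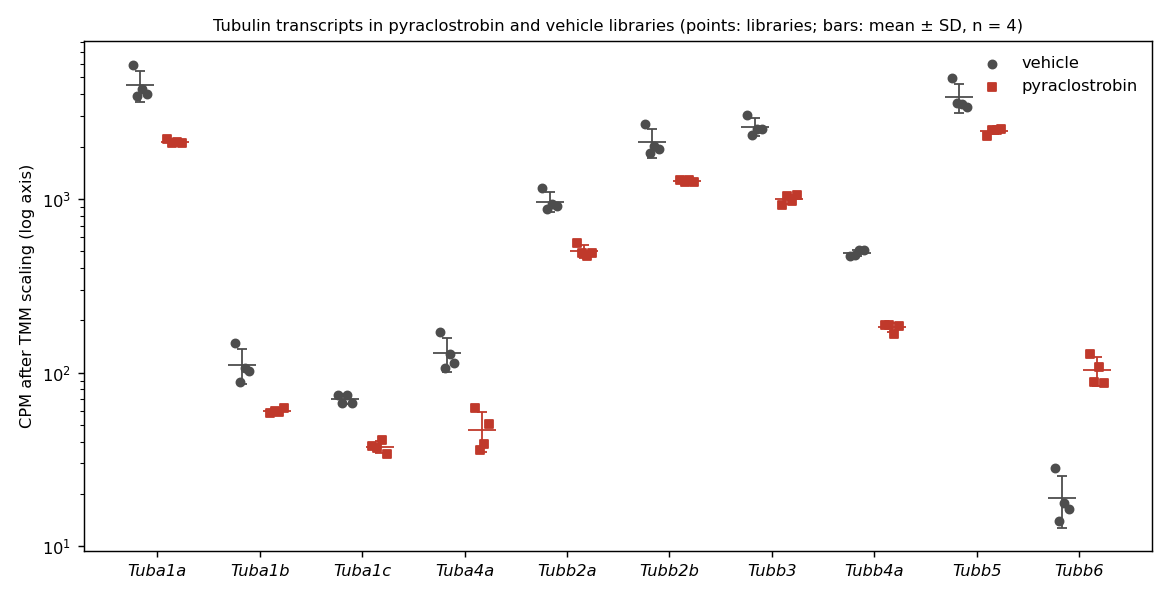
Tubulin transcripts in the count table, in CPM after TMM scaling on a log axis, with 1 point per library and the mean ± SD of 4 libraries for vehicle (grey circles) and pyraclostrobin at 0.1 μM (red squares). The treated libraries lie below the vehicle libraries for 9 genes and above them for Tubb6 (19 against 103 CPM on average).

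In both groups replicate 1, the first library of each series of values above, stood apart from the other 3. Its squared difference from them averaged 7.79 to 26 times that of counting noise, against 1.82 to 2.98 times among the others. Without replicate 1 of both groups all 10 genes were still called. Tubb4b, a beta-tubulin outside the 10, was not called: it had 350.0, 197, 191 and 185 CPM in vehicle and 248, 196, 218 and 195 CPM in pyraclostrobin, with overlapping groups and a log2 difference of -0.10 ± 0.20 (adjusted p = 0.74, edgeR). It is named here after its values were seen.

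The machinery around tubulin moved unevenly with pyraclostrobin. None of 12 genes of the autoregulation list (Ttc5, Scaper and CCR4-NOT subunits) was called by edgeR. In this list 1 gene had an unadjusted p under 0.05, beside 5518 of all 12324 genes, and the list's median log2 difference was -0.050. Ttc5 differed by -0.079 ± 0.15 and Scaper by -0.086 ± 0.16 log2 units (adjusted p = 0.72 and 0.73, edgeR). Of 21 genes for chaperones and cofactors that fold tubulin, only Tbcel, which disassembles tubulin dimers, was called (0.77 ± 0.19, adjusted p = 0.0077, edgeR).

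Genes of tubulin tail modification included 4 of 16 called lower, among them Vash2 and Vash1, which remove the terminal tyrosine of alpha-tubulin (-0.85 and -0.67 log2 units), and the acetyltransferase Atat1 (-0.64). Of 23 microtubule-associated protein genes 8 were called lower, led by Map6 (-0.97), Dcx (-0.92) and Mapt, which encodes tau (-0.86). Of 9 tested genes for destabilizing and severing proteins 3 were called lower, with the stathmins Stmn1 and Stmn3 at -1.09 each, and 1 higher, Fignl1 (1.21). The stathmins bind free tubulin dimers. Beside these counts, 9.22% of all genes tested were called lower and 12.1% higher.

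Cell type markers moved in the same libraries, beside 9.22% of all genes called lower and 12.1% higher. Of 10 neuron markers 7 were called lower, Slc17a7 (-1.58), Syt1 (-1.46) and Snap25 (-1.19) most, and their summed level was 5765 to 6140.1 CPM in vehicle and 2321 to 3232 CPM in pyraclostrobin. Mural and fibroblast markers rose for 6 of 7, with Acta2 at 3.99, Tagln at 3.58 and Col1a1 at 2.86 log2 units, and their sum went from 97.4 to 209 CPM in vehicle to 1197 to 1659 CPM. All 5 tested microglia markers rose (Trem2 2.87, C1qa 2.06, C1qb 2.03), from sums of 20.9 to 29.1 to sums of 71.0 to 126 CPM. Proliferation markers were called higher for 4 of 6, including Cdk1 (2.66), Birc5 (2.38) and Top2a (2.26), with sums of 22 to 51.2 and 95.3 to 189 CPM.

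Among the remaining markers, 0 of 6 astrocyte markers passed edgeR's test and 4 had an unadjusted p under 0.05, as had 5518 of all 12324 genes. The median log2 difference of the astrocyte markers was 1.75, with sums of 676 to 1126 CPM in vehicle and 876 to 3073 CPM in pyraclostrobin. Oligodendrocyte lineage markers gave 2 rises (Cspg4 2.08, Olig2 1.5) and 1 fall (Mog -0.97) of 6, with sums of 107 to 203 and 195 to 309 CPM. The 1 endothelial marker tested, Kdr, rose by 1.56 log2 units, Cldn5 was at 0 in all libraries, and the endothelial sums were 4.97 to 9.95 and 15.7 to 23.4 CPM. The part of these shifts in the tubulin differences was not tested.

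The screen allowed the same genes to be read across classes of chemicals. Its values are deviations of each library from the gene's median, converted here to log2, and they carry no levels. Classes were formed from the known targets of the chemicals, each chemical entered as the median of its libraries, and classes were compared with vehicle by limma with adjustment over 13304 genes. All comparisons with vehicle share the same 49 libraries. For each gene, a single fit pooled the spread of the vehicle libraries, of the chemicals within each class and of all other chemicals. P-values and intervals of classes thus rest on differences between chemicals, often given at unlike doses, as well as between libraries. In vehicle, the SD of a tubulin gene lay between 0.097 (Tubb2a) and 0.24 (Tubb6) log2 units, except for Tuba1c at 0.58. For Tuba1c 1 vehicle library lay at -3.70, and without it the SD was 0.21.

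The 6 fungicides classed here as Qo-site inhibitors of complex III lowered 8 tubulin mRNAs and raised Tubb6. That made 9 of 10 called, beside 23.3% of all genes (15.4% lower, 7.89% higher). The median log2 difference was -0.28 for the 10 genes and -0.0095 for all genes. Tuba4a fell most (-0.62 ± 0.11, adjusted p = 1.5e-06, limma), then Tubb4a (-0.52 ± 0.057, adjusted p = 1.5e-15) and Tubb3 (-0.49 ± 0.073, adjusted p = 4.5e-09). Tuba1a, Tuba1b, Tubb2a, Tubb2b and Tubb5 fell by 0.22 to 0.29. Tuba1c was at 0.0085 ± 0.13 and was not called, and Tubb6 rose by 0.63 ± 0.13 (adjusted p = 5.3e-05). The call of Tuba1b (-0.22, adjusted p = 0.041) was lost without famoxadone (0.0995), pyraclostrobin (0.23) or trifloxystrobin (0.19), and against the other chemicals (0.092).

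The class was not uniform. For Tubb6 the values were 1.15 with pyraclostrobin at 0.1 μM, 1.02 with fenamidone at 10 μM, 0.97 with trifloxystrobin at 10 μM, 0.93 with famoxadone at 10 μM, 0.15 with fluoxastrobin at 1 μM and 0.025 with azoxystrobin at 0.1 μM. The first 4 exceeded every vehicle library, the highest of which was 0.67, and the other 2 did not. For Tubb4a the same chemicals, in that order, gave -0.64, -0.64, -0.57, -0.53, -0.26 and -0.026, against a lowest vehicle library at -0.13. All of these except the last were below the vehicle range, and azoxystrobin was within the range for all 10 genes. Doses differed, so the chemicals were not compared with each other.

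Fenamidone and famoxadone had 2 libraries each. Tubb6 was 0.89 and 1.14 in the fenamidone libraries and 0.87 and 0.98 in the famoxadone libraries, and Tubb3 was -0.51 and -0.55 with fenamidone and -0.39 and -0.67 with famoxadone. All of these lay outside the vehicle range of the gene. Tuba1b stood at -0.056 and 0.084 with fenamidone, both within the vehicle range. The pyraclostrobin library of the screen carries the same number as replicate 1 of the count table, so the tables are not independent for this chemical. For Tubb3 it stood at -0.58 in the screen and at -1.72 against vehicle replicate 1 in the counts, and for Tubb6 at 1.15 and 2.20. For Tuba1c the directions were opposite, at 0.26 in the screen and -0.98 in the counts. The tables were normalized separately, and the screen values were also corrected for batch by the authors.

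The 4 complex I inhibitors had a smaller set of calls. Both genes called, Tubb4a (-0.45 ± 0.069, adjusted p = 6.5e-08, limma) and Tubb3 (-0.31 ± 0.087, adjusted p = 0.0089), were lower. These 2 of 10 stand beside 7.73% of all genes (6.31% lower, 1.42% higher), and 6 of the 10 had an unadjusted p under 0.05, as had 2472 of all 13304 genes. Tubb6 stood 0.45 ± 0.16 higher, with an adjusted p of 0.064, and 0.20 higher without fenpyroximate (adjusted p = 0.91, limma). Fenpyroximate at 0.1 μM had the highest Tubb6 value of all chemicals, 1.27, and a Tubb4a value of -0.73. Pyridaben at 0.1 μM gave 0.14 and -0.34 and rotenone at 0.01 μM gave 0.33 and -0.37 for these 2 genes. Tebufenpyrad at 0.01 μM was above the vehicle mean for 9 of the 10 genes and lay at -0.065 for Tubb4a. Without fenpyroximate 1 gene of the 10 was called, Tubb4a (-0.33), and without tebufenpyrad 5 were. Calls over all 13304 genes moved too, from 91 (without fenpyroximate) to at most 1411 with 1 chemical left out.

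No tubulin gene was called with the 3 complex II inhibitors boscalid, carboxin and flutolanil, all at 10 μM, nor was any other gene (0.0%). By unadjusted limma p under 0.05 the counts were 0 of 10 and 1149 of 13304. The median difference of the 10 genes was 0.086 log2 units. Boscalid stood above the vehicle range for Tubb2a (0.31) and Tubb2b (0.39). For Tubb3 the interval of the class difference ran from -0.095 to 0.30, and for Tubb6 from -0.41 to 0.31.

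The antitubulin fungicides were benomyl, thiabendazole and thiophanate at 10 μM, which are or give rise to benzimidazoles that bind fungal beta-tubulin, and zoxamide at 1 μM. None of the 10 genes was called, and neither was any other gene (0.0%). By unadjusted limma p under 0.05 the counts were 1 of 10, Tubb4a, and 756 of 13304. Tubb4a gave -0.16 ± 0.069 (95% interval -0.30 to -0.028, adjusted p = 0.86). The intervals of the other genes all included 0: they ran from -0.16 to 0.15 for Tuba1a, from -0.24 to 0.098 for Tubb3, from -0.17 to 0.091 for Tubb5 and from -0.40 to 0.23 for Tubb6.

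Single fungicides stayed close to vehicle. Benomyl was negative for 9 of the 10 genes, at -0.11 for Tuba1a, -0.18 for Tubb3 and -0.12 for Tubb5, and Tuba1c was at 0.19. Zoxamide was positive for all 10, at 0.10 for Tuba1a, 0.11 for Tubb3 and 0.15 for Tubb5. Of the 40 values of these 4 chemicals 2 left the vehicle range (5.0%), Tubb2a (-0.15) and Tubb4a (-0.20) with thiabendazole. Over all genes and all chemicals of the screen the share was 4.77%.

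The 12 microtubule herbicides comprised 8 dinitroanilines, which bind plant tubulin, and chlorpropham, dithiopyr, propyzamide and thiazopyr. All were given at 10 μM except dithiopyr at 0.1 μM. No tubulin gene was called by limma, beside 1.25% of all genes (1.04% lower), and 2 had an unadjusted p under 0.05, as had 1765 of all 13304 genes. These were Tuba4a (-0.27 ± 0.083, adjusted p = 0.073) and Tubb4a (-0.14 ± 0.043, adjusted p = 0.066), each below the vehicle mean in 12 of 12 chemicals. Chemicals outside the classes also lay below vehicle on average for both genes, at -0.12 for Tuba4a and -0.095 for Tubb4a. For the other 8 genes the differences lay between -0.094 (Tubb3) and 0.089 (Tubb6). The interval for Tuba1a was -0.12 to 0.080 and that for Tubb5 was -0.11 to 0.052.

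One dinitroaniline, trifluralin, stood apart within the class. It had -0.50 for Tuba1a, -0.47 for Tuba1b, -0.44 for Tubb3, -0.33 for Tubb2a and -0.29 for Tubb4a, all below the vehicle range, but -0.20 for Tubb6. Its close relatives benfluralin and ethalfluralin, also at 10 μM, had 0.025 and 0.076 for Tuba1a, within the vehicle range. Ethalfluralin had the highest Tubb6 of the class at 0.67, above the vehicle range, and flumetralin followed at 0.65. Each of these herbicides had 1 library, so these differences have no replicate check.

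**Figure D2:**
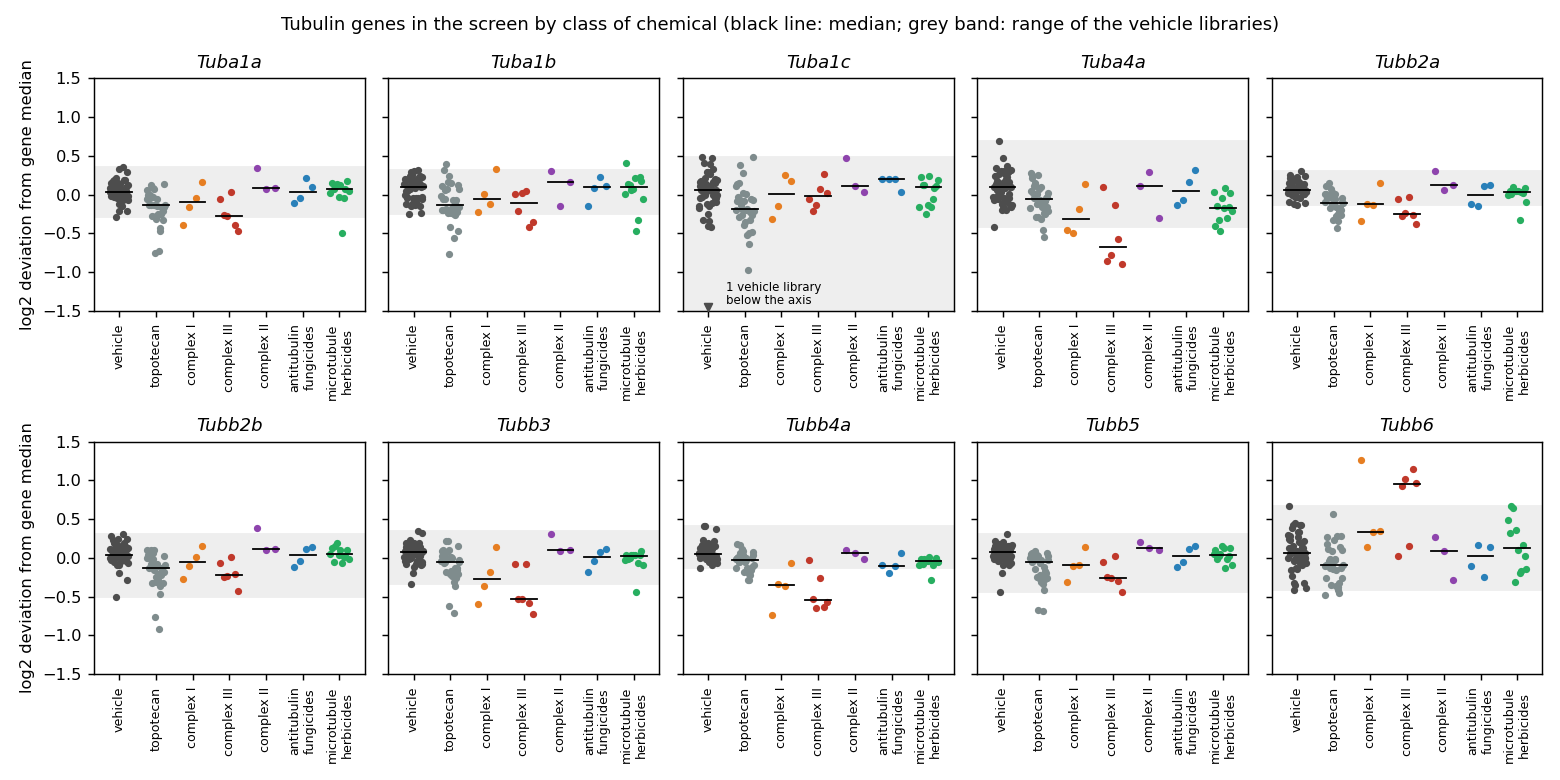
Log2 deviation from the gene median for each tubulin gene in the screen, with 1 point per vehicle or topotecan library and 1 point per chemical of the other classes, the median as a black line and the vehicle range as a grey band. At least 4 of the 6 complex III inhibitors lie below the vehicle range for Tubb3, Tubb4a and Tuba4a and 4 lie above it for Tubb6, whereas antitubulin fungicides lie within the vehicle range apart from 2 values, and 1 vehicle library at -3.70 for Tuba1c is drawn as a triangle at the lower edge.

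The direct test between the 6 Qo-site inhibitors and the 12 microtubule herbicides called 7 tubulin genes, beside 13.2% of all genes (9.48% lower, 3.71% higher). Tubb3 (-0.39 ± 0.084, adjusted p = 0.00015, limma), Tubb4a (-0.38 ± 0.066, adjusted p = 1.4e-06), Tuba1a (-0.27), Tubb2b (-0.25), Tubb5 (-0.25) and Tubb2a (-0.20) were lower with the complex III inhibitors. Tubb6 was higher by 0.54 ± 0.15 (adjusted p = 0.0072). Tuba4a (-0.35, adjusted p = 0.053), Tuba1b (-0.20, adjusted p = 0.18) and Tuba1c (-0.038, adjusted p = 0.93) were not called.

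Topotecan, the topoisomerase 1 inhibitor used as positive control, lowered 9 of the 10 genes, Tubb6 among them, by limma over 32 and 49 libraries. At the same threshold 45.8% of all genes were called, 20.9% lower and 24.9% higher. Differences were small, from -0.13 (Tubb4a) to -0.22 (Tuba1a), and Tuba1c at -0.14 ± 0.11 was not called (adjusted p = 0.29). Without the vehicle library at -3.70 Tuba1c was called too, at -0.22 (adjusted p = 0.00078). Tuba1a ranged from -0.29 to 0.35 with a median of 0.033 in vehicle and from -0.75 to 0.14 with a median of -0.14 in topotecan, so the groups overlapped widely. Tubb6 was 0.14 lower with topotecan (adjusted p = 0.029), with medians of 0.063 and -0.088.

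**Figure D3:**
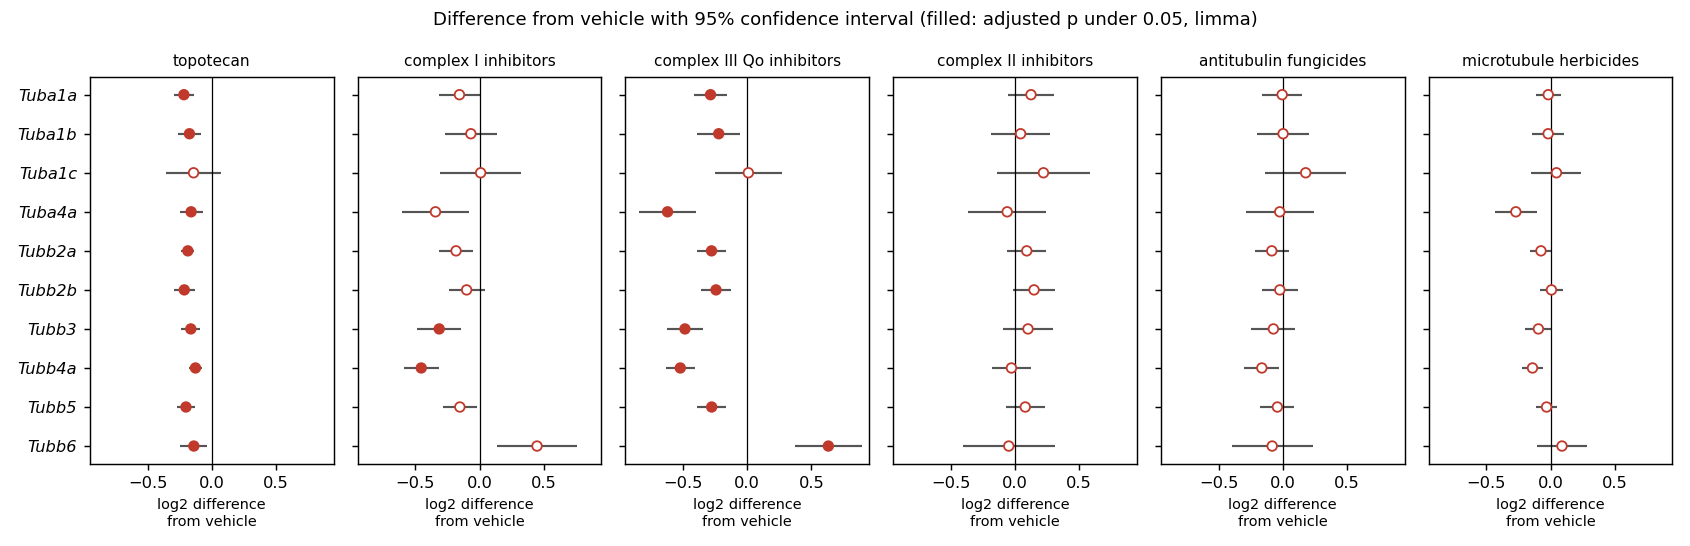
Difference from vehicle of each tubulin gene on the log2 scale of the screen, with 95% confidence intervals, filled where the adjusted p of limma is under 0.05. Tubb6 is higher with complex III inhibitors (0.63) and lower with topotecan (-0.14), and no gene is filled for complex II inhibitors, antitubulin fungicides or microtubule herbicides.

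The 267 chemicals outside these classes gave 1 call against vehicle, Tubb4a (-0.095 ± 0.021, adjusted p = 0.0018, limma), beside 4.26% of all genes (2.57% lower, 1.69% higher). The other 9 differences lay between -0.12 (Tuba4a) and 0.039 (Tuba1c).

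Genes around tubulin in the screen went as follows, beside 15.4% of all genes called lower and 7.89% higher with Qo-site inhibitors. With complex I inhibitors these shares were 6.31% and 1.42%. With Qo-site inhibitors 0 of 12 autoregulation genes were called by limma and 1 had an unadjusted p under 0.05, as had 4329 of all 13304 genes. Ttc5 was at -0.057 and Scaper at 0.059. By contrast 14 of 23 microtubule-associated protein genes (Map6 -0.43, Mapt -0.39, Dcx -0.39), 8 of 16 tail modification genes (Ttll5 -0.53, Vash1 -0.37, Vash2 -0.34) and 6 of 11 genes for destabilizers (Stmn4 -0.45, Stmn3 -0.42, Stmn2 -0.42) were lower. Tubulin folding genes were called lower for 2 of 21 (Tbcb -0.27, Cct6a -0.15) and higher for 1 (Tbcel 0.22). Complex I inhibitors lowered 12 of 23 microtubule-associated protein genes (Dcx -0.38, Map6 -0.33, Map1b -0.32), 5 of 11 destabilizers (Stmn4 -0.34, Stmn3 -0.32, Stmn2 -0.28) and 3 of 16 tail modification genes.

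With topotecan 1 of 12 autoregulation genes rose (Ttc5 0.28) and 3 fell, Scaper by 0.72 and Cnot6l by 0.15 on the log2 scale most. Of all genes, 24.9% were called higher and 20.9% lower with topotecan. Of 23 microtubule-associated protein genes 15 fell (Dclk1 -0.60, Map2 -0.36, Clasp1 -0.30). With microtubule herbicides 0 of 12 autoregulation genes were called and 1 had an unadjusted p under 0.05. In the same class 2 of 23 microtubule-associated protein genes fell, Map1a (-0.16) and Mapre2 (-0.10), beside 1.04% of all genes called lower. With antitubulin fungicides no gene of any list was called by limma. At an unadjusted p under 0.05 this class had 0 of 12 autoregulation genes, 1 of 21 folding genes and 2 of 23 microtubule-associated protein genes.

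Some markers moved with some of the classes here too, and the shares of all genes called are those given above for each class and topotecan. No marker was called with complex II inhibitors or antitubulin fungicides. Qo-site inhibitors lowered 10 of 10 neuron markers (median -0.53, Gad2 -1.27, Gad1 -0.89, Syt1 -0.61) and raised 5 of 8 mural and fibroblast markers (Acta2 1.68, Tagln 1.43, Col1a1 1.05) and 1 of 6 astrocyte markers, Gfap (0.71). With Qo-site inhibitors 0 of 4 microglia, 0 of 6 proliferation and 0 of 1 endothelial markers were called. Of 6 oligodendrocyte lineage markers, Cspg4 rose (0.45) and Mog fell (-0.43) with them. Complex I inhibitors lowered 8 of 10 neuron markers (median -0.36) and raised Acta2 (1.37) and Tagln (1.07). Of the other marker lists only Mog was called with complex I inhibitors (-0.63), with 0 of 4 microglia and 0 of 6 proliferation markers. With microtubule herbicides 1 neuron marker fell, Rbfox3 (-0.33). Topotecan lowered 6 and raised 2 of 10 neuron markers, and it lowered 5 of 6 astrocyte and 5 of 6 proliferation markers. Their part in the tubulin differences was not tested.

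Over all 297 chemicals, the tubulin genes left the range of the 49 vehicle libraries in 236 of 2970 gene and chemical pairs (7.95%), against 4.77% over all genes. Of the 236, 188 were below and 48 above, beside 2.69% below and 2.07% above for all genes. Tubb4a was below the range most often, with 48 chemicals, then Tubb2a with 31, Tuba4a with 30 and Tuba1b with 26. Tubb5 and Tubb2b were each below it with 1 chemical and Tuba1c with 0. The vehicle library at -3.70 for Tuba1c was also the lowest vehicle library for Tuba1a, Tubb2b, Tubb3, Tubb5 and Tubb6. Without it 27 chemicals were below for Tubb5, 11 for Tubb2b, 9 for Tuba1c, 36 in place of 16 for Tubb3, 24 in place of 16 for Tuba1a and 20 in place of 19 for Tubb6. Leaving out a library can only raise such counts for any gene, and the share over all genes without it is not given.

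The lowest values came from chemicals outside the classes. Emamectin benzoate at 1 μM, an avermectin insecticide, was lowest of all chemicals for Tuba1a (-0.85), Tuba1b (-0.88), Tuba4a (-1.22), Tubb2a (-0.81), Tubb3 (-1.23) and Tubb4a (-1.03), while its Tubb6 value was -0.24. The azole fungicide imazalil at 10 μM was lowest for Tubb2b (-0.55), Tubb5 (-0.56) and Tuba1c (-0.66). Second lowest were trifluralin for Tuba1a, trichlorfon for Tuba1b (-0.68), emamectin benzoate for Tuba1c (-0.62), triflumizole for Tuba4a (-1.02), imazalil for Tubb2a (-0.51), dicofol for Tubb2b (-0.45), difenzoquat metilsulfate for Tubb3 (-0.88) and Tubb4a (-0.75), and trifloxystrobin for Tubb5 (-0.45).

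At the high end, boscalid was first or second for Tuba1a (0.34), Tubb2a (0.31), Tubb2b (0.39) and Tubb3 (0.31). Paclobutrazol, a triazole growth regulator, was so for Tuba1c (1.07), Tubb3 (0.31) and Tubb5 (0.33). Other high values were those of fosthiazate for Tuba1a (0.39), buprofezin (0.46) and isoxaflutole (0.45) for Tuba1b, bensulide for Tuba1c (0.69), dichlorprop for Tuba4a (0.56) and Tubb4a (0.37), dichlobenil for Tuba4a (0.53), etridiazole for Tubb4a (0.29), ethofumesate for Tubb2a (0.32), prometryn for Tubb2b (0.36) and quizalofop-ethyl for Tubb5 (0.33). These high values were smaller than the low ones for 8 of the 9 genes, the exception being Tuba1c.

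Tubb6 had its own order. Its highest values came from fenpyroximate (1.27) and the diphenyl ether herbicide oxyfluorfen at 10 μM (1.15), ahead of pyraclostrobin (1.15), fenamidone (1.02) and diethylhexyl pthalate (1.00). Its lowest came from the biocide TCMTB (-1.28) and the herbicide clomazone (-0.93). Tubb6 was above the vehicle range with 12 chemicals and below it with 19. With 8 chemicals Tubb6 was above while at least 1 other tubulin gene was below: fenpyroximate, famoxadone, fenamidone, pyraclostrobin, trifloxystrobin, oxyfluorfen, buprofezin and diethylhexyl pthalate. With 6 of them both Tubb3 and Tubb4a were below. Oxyfluorfen was below the range for 6 genes, with -0.45 for Tuba1b and -0.43 for Tubb3 among them.

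**Figure D4:**
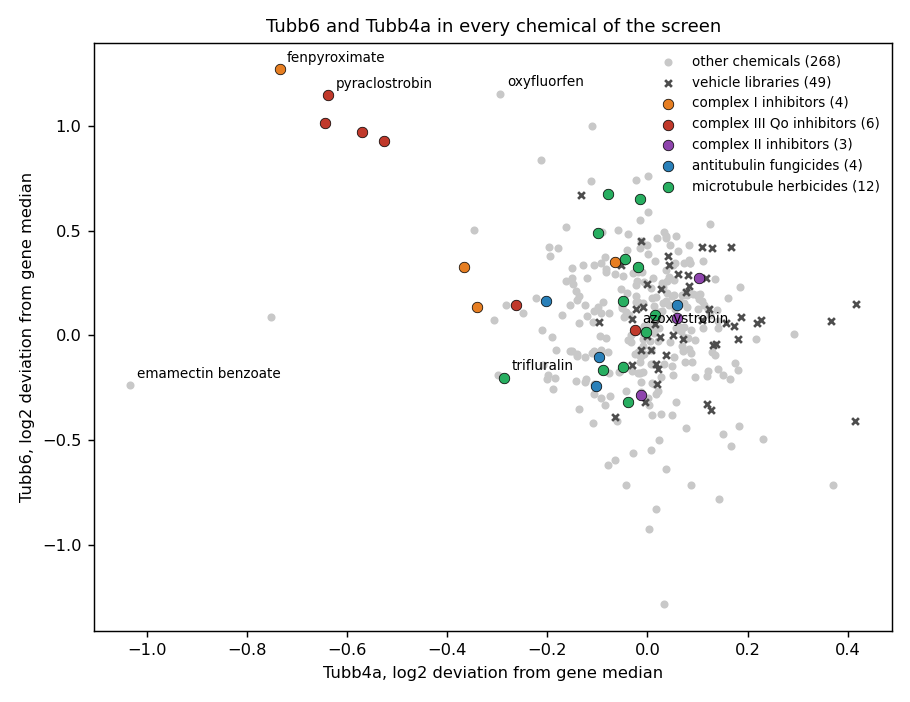
Tubb6 against Tubb4a in the screen, both as log2 deviation from the gene median, with 1 point per chemical (coloured by class, grey for all others) and crosses for the 49 vehicle libraries. Fenpyroximate and 4 of the 6 complex III inhibitors lie in the upper left corner with Tubb6 between 0.93 and 1.27, emamectin benzoate lies far left at a Tubb6 of -0.24, and azoxystrobin lies among the vehicle libraries.

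Across the medians of 294 chemicals, leaving out the 3 topoisomerase 1 inhibitors, the 9 genes other than Tubb6 varied together. Pearson's r of the 36 pairs was 0.29 to 0.89 with a median of 0.63, highest for Tubb2a with Tubb3 (0.89) and lowest for Tuba1c with Tuba4a (0.29). The median over pairs of every 10th gene of the table was -0.00080. Tubb6 had r between -0.29 (with Tubb4a) and 0.041 (with Tuba1c). Most points share processing batches and each is mostly 1 library, and part of the likeness among the Tuba1 and Tubb2 genes can come from shared reads, so these values are descriptions.

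The genes outside the 10 that were most like each of them differed between isotypes. For Tubb2a (0.73), Tubb2b (0.89), Tubb3 (0.76), Tubb5 (0.86) and Tuba1a (0.80) it was Tubb2a-ps2, a gene named as a pseudogene of Tubb2a, and Gm6682 came second for Tuba1a (0.79) and Tubb2b (0.70). The windows that Tubb2a-ps2 shares with the tubulin genes are not given, and part of its likeness to them may come from shared reads, which was not tested. Tuba1c was most like Gm6682 (0.67), whose annotated part matched 10.2% of the windows of Tuba1c and 10.8% of those of Tuba1a, and Tuba1b was most like Tubb4b (0.57). After these came Crmp1 and Calm3 for Tubb3 (0.76 each) and Tubb2a (0.71 and 0.69), Crmp1 for Tubb2b (0.69) and Tubb5 (0.71), Nov for Tubb5 (0.73), Idh1 for Tuba1a (0.73) and Mpped1 for Tuba1b (0.51) and Tuba1c (0.54). Crmp1 encodes a collapsin response mediator protein that binds tubulin.

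Tuba4a and Tubb4a had other neighbours: Slc17a7 (0.70), Ncald (0.66) and Kcnh3 (0.63) for Tuba4a, and Ywhag (0.77), Gng7 (0.74) and Arf3 (0.73) for Tubb4a. Slc17a7 encodes the vesicular glutamate transporter of cortical excitatory neurons. Tubb6 was most like Pea15a (0.65), Sparc (0.63) and Vim (0.61), the last 2 being abundant in glia, fibroblasts and other non-neuronal cells. In the count table Pea15a rose by 1.23, Sparc by 2.14 and Vim by 2.58 log2 units with pyraclostrobin (adjusted p = 0.00055, 0.00010 and 0.00013, edgeR), beside the 2.45 of Tubb6. With Qo-site inhibitors in the screen they rose by 0.40, 0.59 and 0.67, beside 0.63. These 3 genes were picked for their likeness to Tubb6 over chemicals that include the Qo-site inhibitors and the shared pyraclostrobin library, so these values are descriptions and no independent support.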

How the data were processed

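RNA was prepared and sequenced by the authors as polyadenylated, paired-end libraries of 50 bases. Per the labels and the study's methods, the authors removed artefacts with TagDust, aligned reads to mm9 with TopHat and summed reads over RefSeq gene models by symbol. The count values of the pyraclostrobin table were deposited without normalization. The screen values were deposited by the authors on the log10 scale, from RPKM that had been quantile normalized, centred on each gene's median and freed of culture and sequencing batch. They therefore hold no levels or depth, and batch could not be examined again. Depth in the count table, 2409623 to 7833440 per library, limits genes of few counts.

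Counts were tested in R 4.3.3 with edgeR 4.0.16 (TMM, at least 10 counts in at least 4 libraries, quasi-likelihood test, Benjamini-Hochberg threshold 0.01). Screen values were converted to log2 and tested with limma 3.58.1 (variance trend, threshold 0.05, two-sided); as the table is centred, that trend runs over mean deviations and not over abundance. Classes of 4, 6, 3, 4 and 12 chemicals, the other chemicals and vehicle entered 1 fit; topotecan had its own. DESeq2 1.42.0 was an alternative for counts. Functions were tested on simulated data. Sequences and windows of 50 bases came from mm9 with GENCODE vM1, where Tubb4a is listed as Tubb4. Descriptions used Python 3.11.15 with pandas 2.3.3.

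The 10 genes, the gene lists and the classes were chosen with earlier results of these data known. Named were the 10 genes, up to 3 genes of each other list per comparison with the largest called differences, the 3 genes most like each tubulin gene, the chemicals of the classes and the 2 highest and 2 lowest chemicals per gene; not every name that the rule allows is given. Columns of a second count table, 6 in number, could not be assigned to samples and were not used, so the planned comparison of sulforaphane plus fenamidone with vehicle plus fenamidone was not run. Alternatives were other tests, scalings, filters, thresholds, references and units, and leaving out each library or chemical in turn. Those without replicate 1 of both groups, and without the vehicle library lowest in Tuba1c, were chosen after seeing the data.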

Additional observations from a re-analysis of the deposited data

Results flagged for a closer look

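Of 60 groups of 4 to 6 values, 5 had a value apart from the rest by Dixon's ratio; chance alone flags about 1 in 20 groups. In the count table, on the log2 CPM scale, vehicle replicate 1 was high for Tubb5 at 12.27, with the nearest vehicle library at 11.80. Pyraclostrobin replicate 1 was high for Tuba1a at 11.12 (nearest 11.05) and low for Tubb5 at 11.18 (nearest 11.29). Pyraclostrobin replicate 3 was low for Tubb4a at 7.39 (nearest 7.53). In the screen, zoxamide was low among the antitubulin fungicides for Tuba1c at 0.036, with the other 3 between 0.19 and 0.20. Their causes were not tested.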

How the results depend on the processing

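Of the 10 tubulin genes, all 10 stayed called for pyraclostrobin in the count table under every alternative run (DESeq2, RLE scaling, no filter, threshold 0.05, replicate block, without replicate 1 of both groups, and each library left out in turn, 10 to 10). The number of all genes called was 4301 at 0.05, 4773 without replicate 1 of both groups, 4052 without vehicle replicate 1 and 1682 without vehicle replicate 3. With the library number as replicate block, 3135 genes and all 10 tubulin genes were called; same-numbered libraries had deviations correlated at 0.367, 0.0913, -0.0387 and 0.14, so the numbers were not taken to pair the libraries.

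In the screen, leaving out 1 chemical at a time gave 8 to 9 calls for Qo-site inhibitors, 1 (without fenpyroximate) to 5 (without tebufenpyrad) for complex I inhibitors, and 0 to 0 for complex II inhibitors, antitubulin fungicides and microtubule herbicides. For complex I inhibitors, Tubb3 lost its call against the other chemicals (adjusted p = 0.061, limma), without fenpyroximate (0.62) and without pyridaben (0.082). Tubb6 gained one against the other chemicals (0.040) and without pyridaben (0.041). For Qo-site inhibitors, Tuba1b lost its call at 0.01, against the other chemicals (0.092) and without famoxadone (0.0995), pyraclostrobin (0.23) or trifloxystrobin (0.19). In the contrast with herbicides, Tubb2a lost its call at 0.01 and Tuba4a gained one over single libraries (0.024); with topotecan, Tubb6 lost its call at 0.01. Calls over all genes for complex I inhibitors were 566 at 0.01, 91 without fenpyroximate and 683 without pyridaben. With 1 chemical left out they ran from 91 to 1411, and those for Qo-site inhibitors from 2114 to 3576. Those for herbicides were 47 at 0.01, 14 against the other chemicals, 31 without flumetralin and 73 without pendimethalin, and complex II inhibitors had 2 without carboxin; at 0.01 the other chemicals had 193 and the contrast with herbicides 1051. The filter on variably expressed genes left none of the 10 genes, so it gave no value for them; it left 1788 calls for topotecan, 77 for complex I, 598 for Qo-site inhibitors and 12 for herbicides. Pairs outside the vehicle range numbered 413 with the second most extreme vehicle libraries as limits and 310 without the library lowest in Tuba1c. Narrower limits can only raise such counts for any gene, and the shares over all genes at these limits are not given.

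Reversed signs concerned differences that were not called. Against the other chemicals these were Tuba1c with complex I (-0.030) and Qo-site inhibitors (-0.030), Tuba4a (0.061) and Tubb4a (0.067) with complex II inhibitors, Tuba1a (0.019) and Tuba4a (0.099) with antitubulin fungicides, and Tuba1a (0.0059), Tuba1b (0.020) and Tubb5 (0.0094) with herbicides. Over single libraries Tuba1c with Qo-site inhibitors was -0.034. Without the vehicle library lowest in Tuba1c, Tuba1c was -0.068 with complex I and -0.068 with Qo-site inhibitors, -0.030 with herbicides and -0.038 with the other chemicals, and Tubb2b was -0.0042 with herbicides. With 1 chemical left out, complex I inhibitors ranged from -0.18 to 0.0069 for Tuba1b and from -0.077 to 0.11 for Tuba1c, and Qo-site inhibitors from -0.046 to 0.049 for Tuba1c. Complex II inhibitors ranged from -0.057 to 0.17 for Tuba1b, -0.19 to 0.11 for Tuba4a, -0.054 to 0.0032 for Tubb4a and -0.17 to 0.11 for Tubb6. Antitubulin fungicides ranged from -0.063 to 0.046 for Tuba1a, -0.049 to 0.073 for Tuba1b, -0.11 to 0.044 for Tuba4a, -0.061 to 0.023 for Tubb2b and -0.086 to 0.0063 for Tubb5. Herbicides ranged from -0.031 to 0.030 for Tuba1a, -0.052 to 0.028 for Tuba1b and -0.0049 to 0.019 for Tubb2b. The causes were not tested. Depth is unknown for the screen.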
